A study of Mus musculus with 55 samples.

Results

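Transcripts of 10 genes of transforming growth factor beta (TGF-beta) and activin signalling were followed across sorted cell populations of mouse liver. They were the ligand genes Tgfb1, Tgfb2, Tgfb3, Inhba and Inhbb, the activin antagonist Fst, and the receptor genes Tgfbr1, Tgfbr2, Tgfbr3 and Acvr2b. The genes were chosen by symbol, and all 10 were found among the 24478 symbols of the deposited expression table, which has 36141 transcript rows. A symbol with several rows was represented by its most abundant row, judged by the average of all 55 libraries. The study sorted 10 populations from livers of C57B/L6 mice by flow cytometry into TRIzol and sequenced their RNA in 55 libraries. Of these, 27 came from normal mice and 28 from mice that had undergone partial hepatectomy (PH), surgical removal of part of the liver, after which the remnant regrows. The populations were clonal biliary epithelial cells (cBEC, 4 normal and 2 PH libraries), biliary epithelial cells (BEC, 4 and 2), ducts labelled as without progenitors (NPD, 2 and 2) and hepatocytes (HC, 4 and 4). The others were endothelial cells (EC, 2 and 3), liver sinusoidal endothelial cells (LSEC, 3 and 5), Kupffer cells (KC, 2 and 3), hepatic stellate cells (HSC, 2 and 3), Thy1 cells (2 and 2) and blood cells (2 and 2). The labels give no time after surgery, no age or sex and no batch, and do not say whether libraries came from separate animals, so p-values measure only the spread between these libraries.

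The 3 TGF-beta ligands are secreted in a latent form, held by latency-associated peptide and latent TGF-beta binding proteins, and have to be released before they act. Tgfbr2 encodes the receptor that binds the ligand, Tgfbr1 the type I receptor that it phosphorylates, and Tgfbr3 (betaglycan) a co-receptor that presents ligand, above all TGF-beta 2. Inhba and Inhbb encode the beta subunits of activin A and activin B, Acvr2b encodes an activin type II receptor, and Fst encodes follistatin, a secreted protein that binds and neutralises activins. In liver, TGF-beta is known as an inhibitor of hepatocyte proliferation and an activator of stellate cells, and activin A as a further inhibitor of hepatocyte growth.

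Values are FPKM (fragments per kilobase of transcript, scaled to the mapped fragments of each library), so levels of different genes can be set side by side per length. FPKM give no counts. The spacing of low values gave an approximate depth for 40 of the 55 libraries, from 2180000 to 30300000 fragments with a median of 15700000. The shallowest 4 were libraries of normal HSC, PH HSC, normal NPD and PH EC. Correlations between replicates ranged from 0.919 to 0.996 on the log2(FPKM + 1) scale. Marker lists of 9 cell types were summed in each library as a check of the labels, and in normal liver each population carried the markers of its label. The normal KC libraries also held endothelial markers (1125 and 1408 FPKM over 6 genes), the Thy1 libraries held endothelial, duct and mesothelial markers, and the NPD libraries held mesothelial markers. The libraries labelled PH blood went against their label: the 7 blood cell markers summed to 538 and 987 FPKM, against 4358 and 4560 in normal blood, while the 6 Kupffer cell markers summed to 6998 and 12423 FPKM, against 658 and 956. The endothelial list there was at 864 and 1674 FPKM, against 269 and 287. Results for blood are therefore given for the libraries labelled PH blood, and the totals, interaction tests and correlations that include them are also given without them. A treatment tag is at odds with a title (the first PH library of cBEC is tagged as normal), and the title was followed, and 1 PH KC library lacks a cell type tag.

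Promoter sequence was taken from RefSeq for GRCm38.p6, where 7 of the 10 genes had an entry. Shown are the 250 bases before the transcription start of the 3 genes that rose together in sinusoidal endothelium after PH (Tgfb2, Inhbb and Tgfbr2), and of Tgfb1, the ligand with the highest level there, which did not pass the test. Capitals mark a TATA box (TATAAA), an E-box (CACGTG), the core of a cAMP response element (TGACG) or a GC box (GGGCGG) on either strand, and all sequences run in the direction of transcription. The Tgfb2 window is chr1:186705990-186706239 (minus strand), the Inhbb window chr1:119422249-119422498 (minus strand), the Tgfbr2 window chr9:116175364-116175613 (minus strand) and the Tgfb1 window chr7:25686752-25687001 (plus strand).
Tgfb2: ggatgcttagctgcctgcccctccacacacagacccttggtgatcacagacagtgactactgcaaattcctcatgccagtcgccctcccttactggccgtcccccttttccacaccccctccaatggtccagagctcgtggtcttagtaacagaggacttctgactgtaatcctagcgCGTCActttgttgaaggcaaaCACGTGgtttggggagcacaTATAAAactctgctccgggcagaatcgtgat
Inhbb: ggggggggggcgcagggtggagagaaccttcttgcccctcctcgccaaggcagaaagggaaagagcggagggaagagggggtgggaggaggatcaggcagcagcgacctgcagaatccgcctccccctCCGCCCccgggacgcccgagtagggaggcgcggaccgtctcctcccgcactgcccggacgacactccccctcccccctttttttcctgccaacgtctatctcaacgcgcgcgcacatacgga
Tgfbr2: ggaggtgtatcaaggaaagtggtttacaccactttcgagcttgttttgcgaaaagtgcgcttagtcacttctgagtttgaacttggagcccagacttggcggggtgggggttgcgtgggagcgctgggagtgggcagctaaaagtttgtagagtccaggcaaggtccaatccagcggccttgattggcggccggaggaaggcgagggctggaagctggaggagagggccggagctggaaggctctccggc
Tgfb1: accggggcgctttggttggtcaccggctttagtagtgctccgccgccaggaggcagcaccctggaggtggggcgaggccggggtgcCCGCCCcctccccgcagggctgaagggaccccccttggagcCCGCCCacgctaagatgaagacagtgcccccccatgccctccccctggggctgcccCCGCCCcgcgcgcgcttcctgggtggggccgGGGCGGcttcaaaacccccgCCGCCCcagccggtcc
The Tgfb2 window holds a TATAAA whose first base lies at position -31 from the start, with CACGTG at -51 and TGACG, read on the other strand, at -72. These 3 matches do not overlap. Of 32851 RefSeq windows of the same length, 12.4% hold TATAAA, 6.02% CACGTG and 17.8% TGACG on either strand. The Tgfb1 window holds 5 matches to GGGCGG and the Inhbb window 1, at -122, and 32.7% of windows hold that motif. The Tgfbr2 window holds none of these 4 motifs. The SMAD box (CAGAC), the short sequence that SMAD proteins bind, has 2 matches in the Tgfb2 window and 1 in the Tgfbr2 window, at -160, and 0 in the windows of Inhbb and Tgfb1, against 42.2% of windows with a match. A CCAAT box (CCAAT) is found once in the Tgfb2 window, at -130, and at 2 places in the Tgfbr2 window, against 33.8% of windows. The full cAMP response element (TGACGTCA, in 1.55% of windows) and an AP-1 site (TGANTCA, in 6.75%) are found in none of the 4 windows. Base composition also differed, with a GC content of 75.2% for Tgfb1, 68.0% for Inhbb, 58.4% for Tgfbr2 and 53.6% for Tgfb2, against a median of 52.4% over all windows. None of the 8 motifs searched is found in all 3 windows of Tgfb2, Inhbb and Tgfbr2, which says only that these letters are not there.

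In normal liver the 3 TGF-beta ligands divided between populations. Tgfb1 was highest in LSEC, at 151 ± 53.6 FPKM (SD, n = 3), and in KC, at 140 ± 10.2 (SD, n = 2). EC stood at 98.0 ± 29.2 (SD, n = 2), blood at 69.0 ± 11.8 (SD, n = 2), HSC at 47.4 ± 11.3 (SD, n = 2) and Thy1 cells at 40.1 ± 9.20 (SD, n = 2). The duct populations were far lower, at 7.88 ± 3.08 in BEC (SD, n = 4), 7.39 ± 1.87 in NPD (SD, n = 2) and 6.03 ± 1.22 in cBEC (SD, n = 4), and HC were at 0.42 ± 0.31 (SD, n = 4). Neighbours in this order whose libraries overlapped were LSEC and KC, EC and blood, HSC and Thy1 cells, and the 3 duct populations. Tgfb1 lies on chromosome 7 (26472021 to 26490096, plus strand; coordinates of genes are those of the deposited table, build mm9, with the start counted from 1).

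Tgfb2 and Tgfb3 had a different distribution. Tgfb2 (chromosome 1, 188446671 to 188529868, minus strand) was at 44.5 and 35.3 FPKM in NPD, above every other normal library, the nearest being a BEC library at 33.2. BEC were at 29.9 ± 5.52 (SD, n = 4), cBEC at 29.1 ± 2.54 (SD, n = 4) and Thy1 cells at 28.3 ± 3.47 (SD, n = 2), and their libraries overlapped. All other populations averaged 6.24 or less. Tgfb3 (chromosome 12, 87397693 to 87419991, minus strand) was at 116 and 122 FPKM in NPD and at 96.9 and 50.3 in Thy1 cells, which did not overlap. BEC were at 34.5 ± 3.71 (SD, n = 4) and cBEC at 33.0 ± 3.83 (SD, n = 4), with overlap, and the remaining populations averaged 6.20 or less. Mesothelial markers summed to 4687 and 5055 FPKM in normal NPD, above its duct markers (1235 and 1638), and to 1536 and 2276 in Thy1 cells. In BEC they summed to at most 31.6. The part of mesothelial cells in the Tgfb2 and Tgfb3 levels was not tested. As a share of the summed FPKM of the 3 ligands, Tgfb1 made up 95.7% ± 4.62 in LSEC (SD, n = 3), 96.8% ± 0.12 in KC (SD, n = 2) and 97.6% ± 0.89 in blood (SD, n = 2). Its share was 8.90% ± 1.8 in cBEC (SD, n = 4) and 4.42% ± 1.01 in NPD (SD, n = 2), where Tgfb3 took 71.6% ± 4.29 (SD, n = 2).

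**Figure D1:**
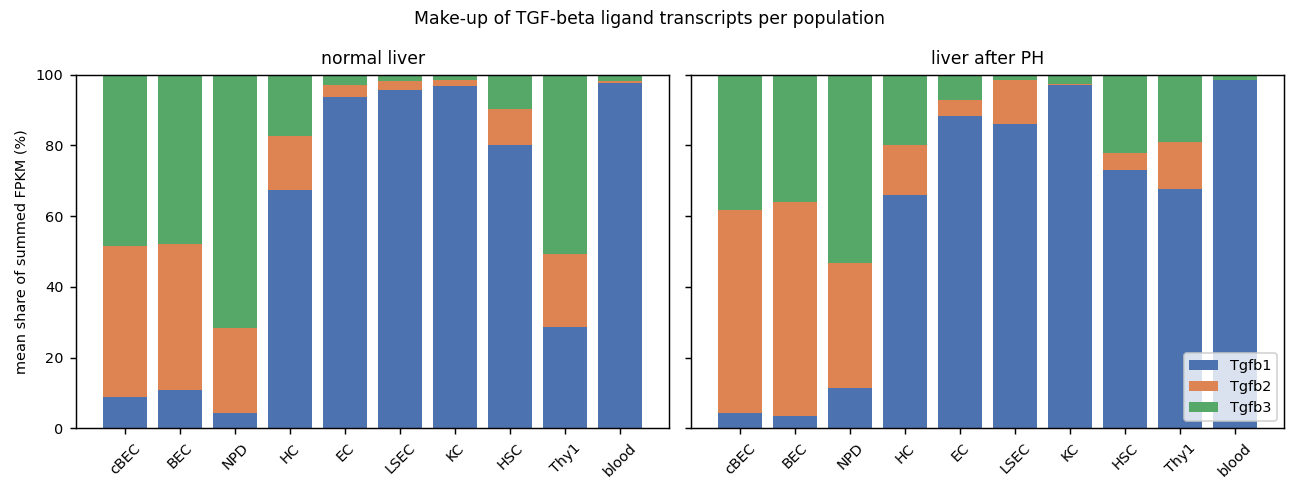
Mean share (%) of Tgfb1, Tgfb2 and Tgfb3 in their summed FPKM, by population (x axis), in normal liver (left) and after PH (right). Tgfb1 makes up 93.7% to 97.6% in normal EC, LSEC, KC and blood and 4.42% to 10.9% in the 3 duct populations. Of these 3, NPD also held mesothelial markers. In HC the 3 ligands sum to 0.61 FPKM in normal liver, so the shares there describe very low values.

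The activin subunits were separated as well. Inhbb (chromosome 1, 121312040 to 121318825, minus strand) was endothelial in normal liver, at 44.6 ± 15.6 FPKM in LSEC (SD, n = 3) and at 64.6 and 14.8 in the EC libraries, which overlapped those of LSEC. BEC were next at 10.8 ± 1.34 (SD, n = 4). Inhba (chromosome 13, 16103684 to 16123442, plus strand) was highest in cBEC, at 15.7 ± 5.36 (SD, n = 4), and in BEC, at 11.01 ± 4.15 (SD, n = 4), with overlap down the order through Thy1 cells, HSC, NPD and HC. It stayed at or under 0.62 FPKM in every normal EC, LSEC, KC and blood library. Inhbb made up 98.9% ± 0.90 of the summed Inhba and Inhbb FPKM in LSEC (SD, n = 3) and 35.6% ± 10.2 in cBEC (SD, n = 4).

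Fst (chromosome 13, 115242470 to 115249159, minus strand) was found in few populations. It was at 43.6 and 32.6 FPKM in normal NPD, at 23.3 and 29.5 in Thy1 cells, and at 2.86, 5.12, 4.80 and 2.51 in HC. No other normal library exceeded 1.29. It was listed at 0 in all normal LSEC and KC libraries. All 6 hepatocyte markers were also listed at 0 in those libraries, so a 0 may not mean that a transcript was absent. Mesothelial markers (5 genes, Msln among them) were high in the same populations, NPD (4687 and 5055 FPKM) and Thy1 cells (1536 and 2276), while in HC, where Fst was also measured, they summed to at most 5.75. The part of mesothelial cells in the Fst level was not tested.

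**Figure D2:**
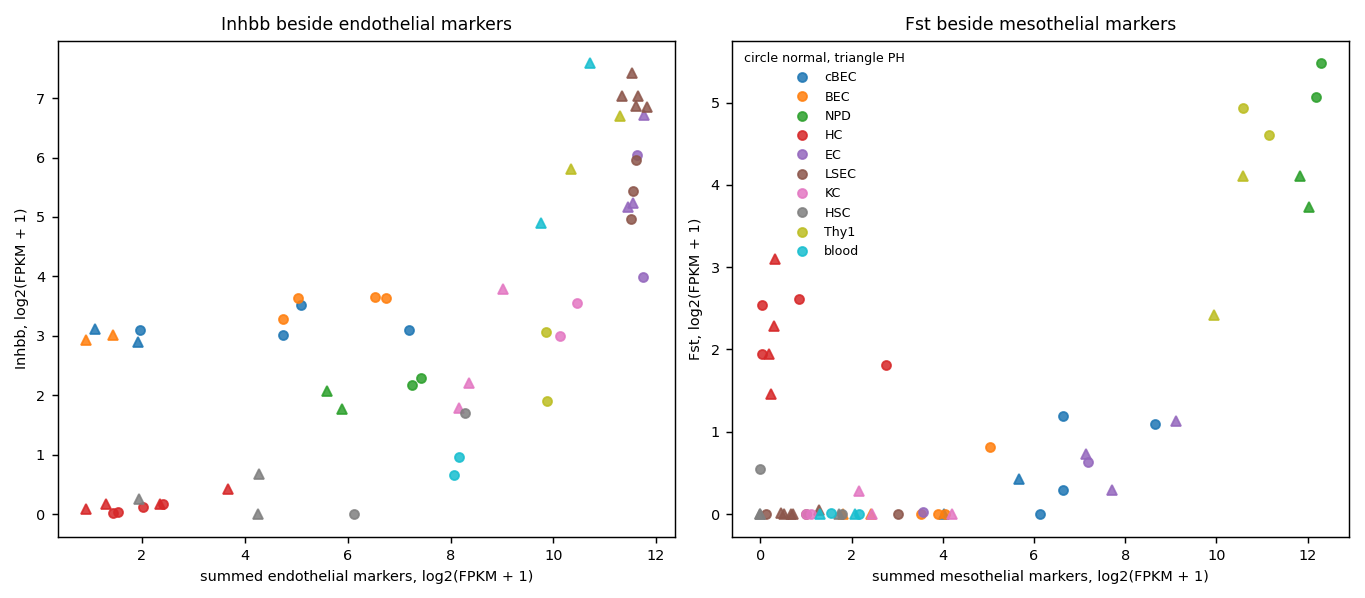
Each point is a library, coloured by population (circle normal, triangle PH), on log2(FPKM + 1) scales. Left, Inhbb (y) against the sum of 6 endothelial markers (x): the libraries at the right edge are EC and LSEC, and the PH libraries of Thy1 cells and blood lie to the right of the normal ones of the same population. Right, Fst (y) against the sum of 5 mesothelial markers (x): NPD and Thy1 cells are at the upper right and HC have Fst with almost no such markers.

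Among the 4 receptors, Tgfbr2 had the highest mean in every normal population except HSC, where Tgfbr3 was higher. In normal liver Tgfbr2 (chromosome 9, 115996813 to 116084481, minus strand) was at 391 and 124 FPKM in the 2 Thy1 libraries, at 191 ± 7.30 in EC (SD, n = 2), 163 ± 16.9 in LSEC (SD, n = 3) and 151 ± 3.51 in NPD (SD, n = 2). Blood (117), KC (106) and HSC (65.4) followed, each below the libraries before it, then cBEC at 25.6 ± 11.8 (SD, n = 4) and BEC at 19.2 ± 1.84 (SD, n = 4). HC had 5.83 ± 1.49 (SD, n = 4). Tgfbr1 (chromosome 4, 47366094 to 47427796, plus strand) had a narrower range. It was at 67.3 and 50.9 in blood and 43.5 and 31.6 in KC, and between 8.53 and 21.5 in every other normal library except HC, at 3.54 ± 2.41 (SD, n = 4). Tgfbr3 (chromosome 5, 107535589 to 107718614, minus strand) was at 99.4 and 94.2 in HSC, above every other normal library, the nearest being a Thy1 library at 81.5. LSEC, EC, Thy1 cells and NPD followed with means between 78.2 and 53.4, then KC (28.3 ± 3.87, SD, n = 2) and blood (17.3 ± 2.56, SD, n = 2), while cBEC, BEC and HC averaged 7.39, 4.46 and 0.29. Acvr2b (chromosome 9, 119311296 to 119351266, plus strand) was low everywhere, with no library of either treatment above 6.63 FPKM.

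**Figure D3:**
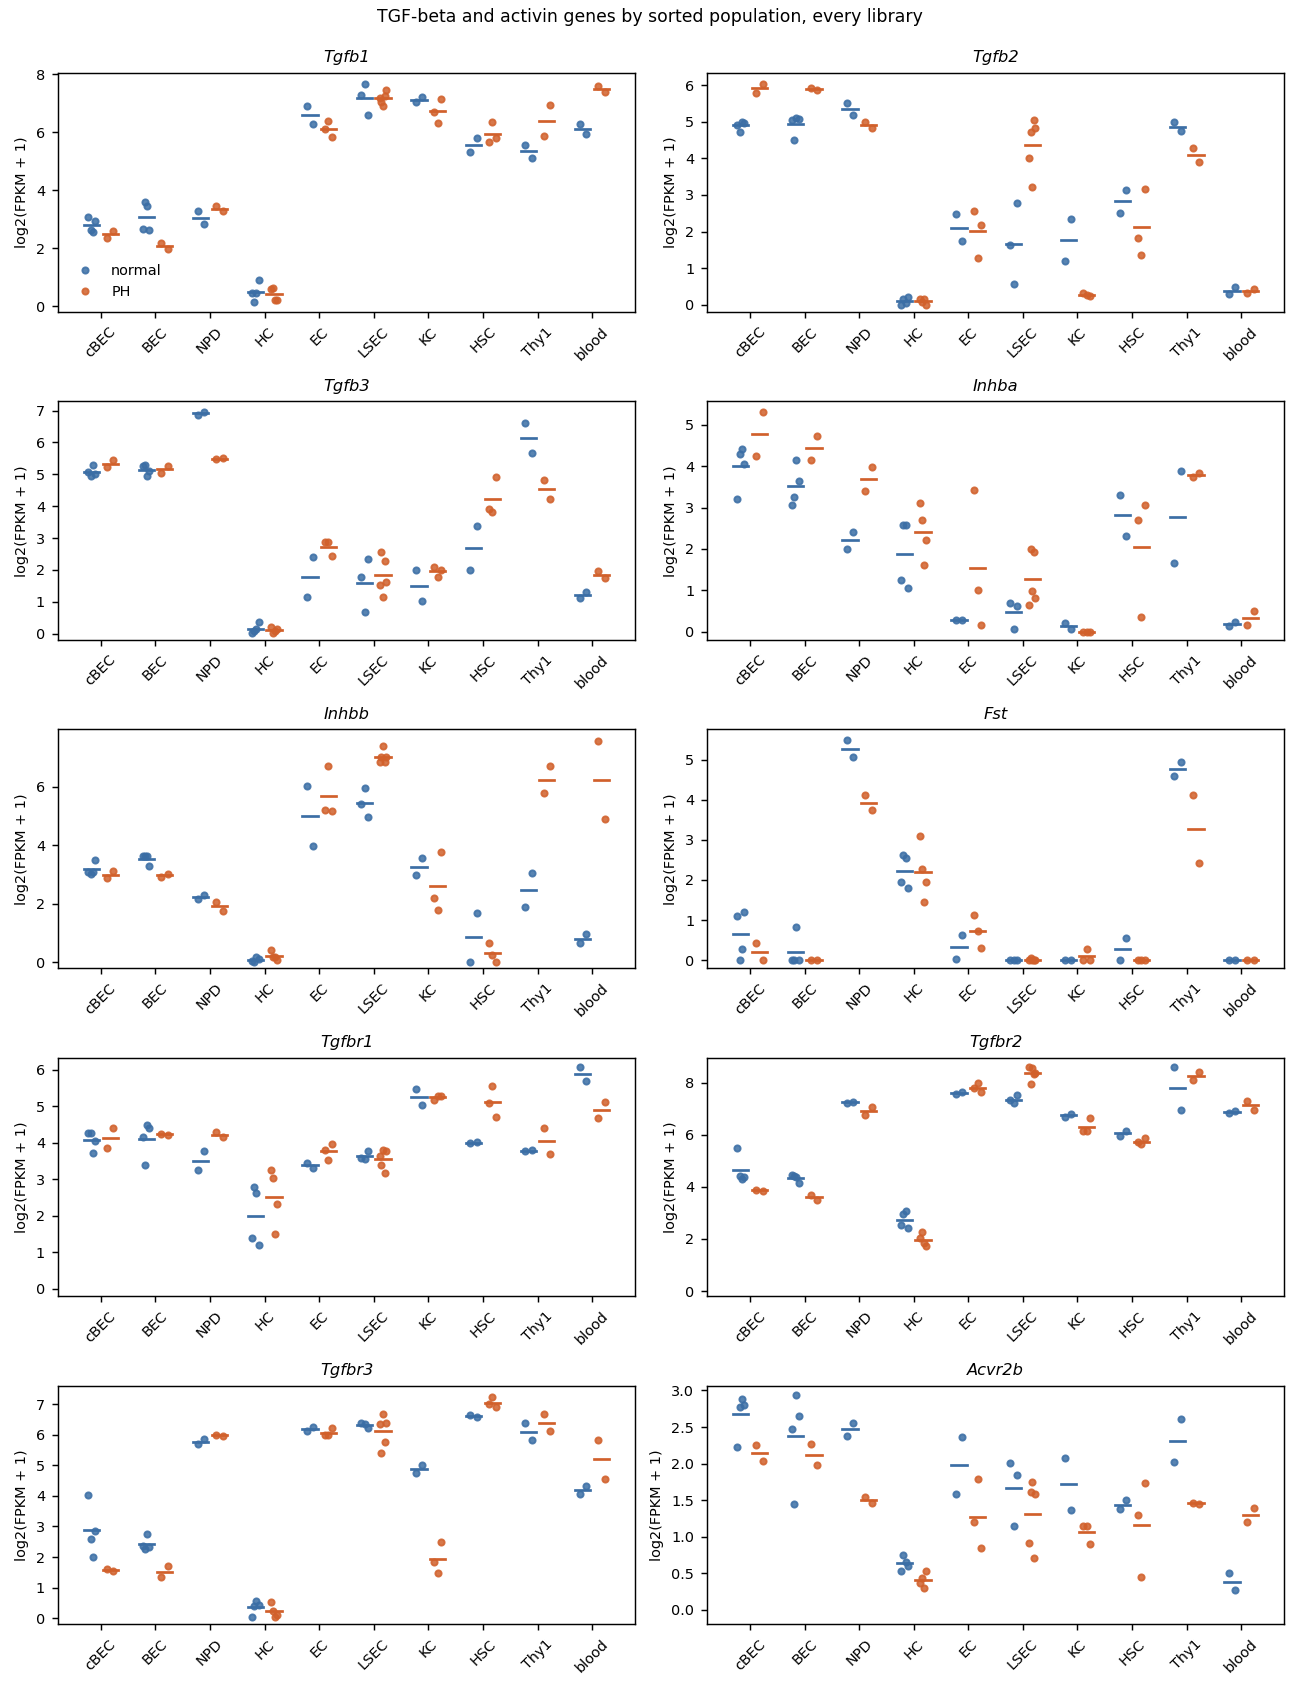
Level of each of the 10 genes, log2(FPKM + 1) on the y axis, by population on the x axis. Points are libraries (blue normal, orange PH) and horizontal lines are group means. Tgfb1 and Tgfbr2 are high in endothelial, Kupffer, stellate, Thy1 and blood sorts, Tgfb2 and Tgfb3 in duct and Thy1 sorts, and most genes are near the floor in HC.

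All 10 genes differed among the 10 normal populations (limma moderated F test, Benjamini-Hochberg adjusted p under 0.05). That call was made for 93.3% of all genes tested, so it does not set these genes apart. Each population was then compared with the mean of the other 9. HC were lower for 8 of the 10 genes, against 67.6% of all genes, and higher for Fst alone, against 15.0%. LSEC were higher for Tgfb1, Inhbb, Tgfbr2 and Tgfbr3 (4 genes, against 17.1% of all genes) and lower for Tgfb2, Tgfb3, Inhba and Fst (4, against 28.4%). Tgfb1, Inhbb, Tgfbr2 and Tgfbr3 were also the 4 higher in EC (against 13.7%), and 3 were lower, Tgfb3, Inhba and Fst (against 20.1%). NPD were higher for 6 (against 18.8%), with Fst at 4.34 and Tgfb3 at 4.10 on the log2 scale above the mean of the others (SE 0.28 and 0.35, limma adjusted p 8.98e-11 and 6.55e-09), and lower for Tgfb1 alone (against 14.9%). Thy1 cells were higher for 5, the 2 ligands Tgfb2 and Tgfb3, Fst, Tgfbr2 and Tgfbr3 (against 20.1%). None of the other 5 was called there, where 4.30% of all genes were lower.

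The remaining populations divided as follows. In cBEC, 4 genes were higher, Tgfb2, Tgfb3, Inhba and Acvr2b (against 36.8% of all genes), and 4 lower, Tgfb1, Fst, Tgfbr2 and Tgfbr3 (against 19.7%). BEC were higher for those same 4 and for Inhbb (against 37.1%) and lower for the same 4 (against 21.1%). KC were higher for Tgfb1 and Tgfbr1 (2, against 16.9%) and lower for 4, namely Tgfb2, Tgfb3, Inhba and Fst (against 23.1%). HSC were higher for Tgfb1, Inhba and Tgfbr3 (3, against 13.5%), with Tgfbr3 at 2.27 (SE 0.28, limma adjusted p 1.41e-06), and lower for Inhbb and Fst (2, against 32.9%). Blood was higher for Tgfb1, Tgfbr1 and Tgfbr2 (3, against 36.6%) and lower for 6 (against 27.4%). Without library 1 of normal HSC or library 1 of normal EC, fewer of these genes were called in that population. Only 1 of its libraries was then left, and the share of all genes called was not computed.

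After PH, 83 of the 100 pairs of gene and population could be tested, and 13 passed, 8 higher and 5 lower. That is 15.7% of the pairs, against 13.4% of all gene and population pairs tested, a share near the background. Without the blood libraries, 8 of 76 passed (against 7.45% of all pairs), 4 higher and 4 lower. The pairs left out had under 1 FPKM in too many libraries, 6 of them in HC. The response differed between populations for 7 of the 10 genes (limma F test of the interaction over all 20 groups), against 47.8% of all genes tested. These were Tgfb1, Tgfb2, Tgfb3, Inhbb, Fst, Tgfbr2 and Tgfbr3. With the blood libraries left out, 6 of them passed and Fst was at an adjusted p of 0.0737. The share of all genes that passed in that fit was not computed. In these bulk samples, fewer cells of a type and less RNA per cell cannot be told apart.

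**Figure D4:**
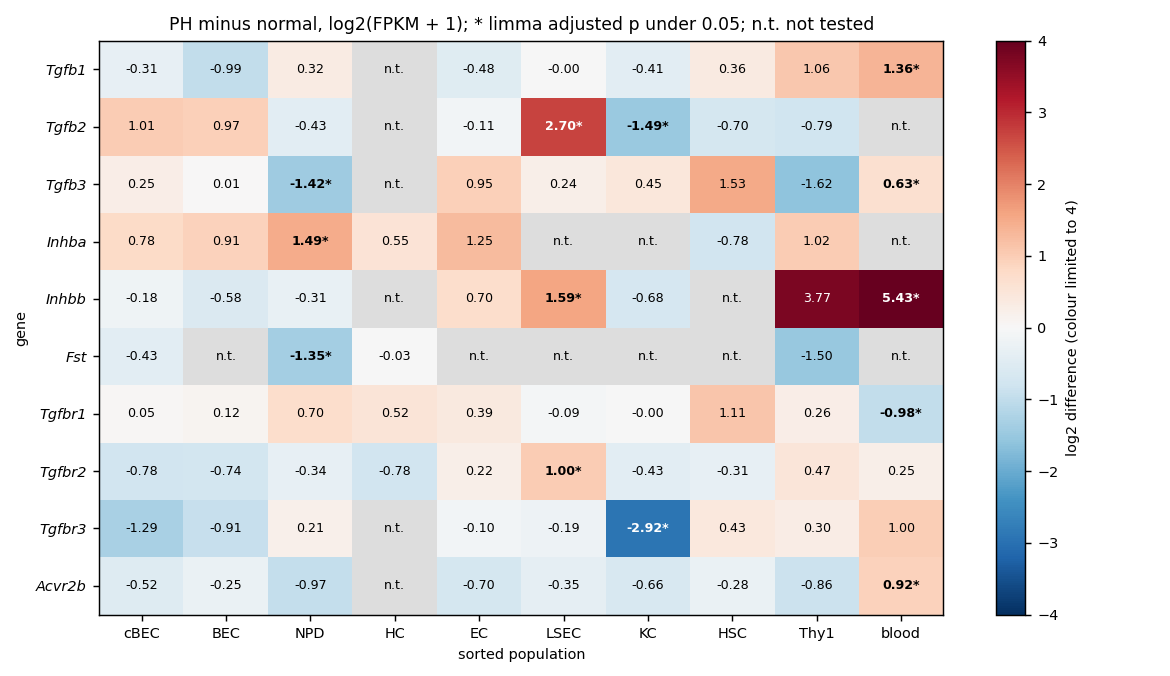
Difference PH minus normal on the log2(FPKM + 1) scale for each gene (rows) in each population (columns), red higher and blue lower after PH. Asterisks mark limma adjusted p under 0.05, and grey cells (n.t.) were too low to test. The 13 calls lie in NPD, LSEC, KC and blood.

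In LSEC, Tgfb2, Inhbb and Tgfbr2 rose after PH, while the libraries of Tgfb1 and Tgfbr3, high in both groups, overlapped. The 3 rises were 3 of 8 genes tested, against 8.46% of all genes, and the median difference of the 8 was 0.12 against -0.03 for all genes. Tgfb2 was at 2.11, 0.47 and 5.86 FPKM in the normal libraries and at 15.0, 25.1, 8.23, 31.9 and 27.3 after PH. All 5 PH libraries were above all 3 normal ones, although the lowest of them, library 3, was only a little above the highest normal library. The difference was 2.70 on the log2 scale (SE 0.54, limma adjusted p 0.0178), a ratio of means of 7.64. Inhbb was at 42.2, 61.3 and 30.3 in normal LSEC and at 116, 130, 170, 115 and 131 after PH. The groups were clearly apart, with a difference of 1.59 (SE 0.23, limma adjusted p 0.00443) and a ratio of means of 2.96. Tgfbr2 was at 159, 147 and 181 before and 382, 244, 376, 321 and 325 after PH, again without overlap. It rose by 1.002 (SE 0.186, limma adjusted p 0.0121), with a ratio of means of 2.03.

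Tgfb1 in LSEC was at 156, 202 and 94.9 FPKM in normal liver and at 146, 130, 120, 153 and 177 after PH. The groups overlapped, and the difference was 0.00 (SE 0.24, limma adjusted p 0.996). Because Tgfb2 rose beside it, the share of Tgfb2 among the 3 ligands was 2.38% ± 2.84 (SD, n = 3) in normal LSEC and 12.3% ± 4.44 (SD, n = 5) after PH. Tgfbr1 was between 7.96 and 13 FPKM in all 8 LSEC libraries. Inhba, not tested there, was at most 0.62 FPKM before and between 0.56 and 2.97 after PH, and Inhbb made up at least 97.6% of the 2 activin subunits in every LSEC library.

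Other markers moved in the same LSEC libraries. The endothelial list overlapped (2901 to 3115 FPKM in normal, 2584 to 3602 after PH), but the 6 sinusoidal markers were at 4972 to 9690 in normal libraries and 1527 to 5584 after PH, with 2 of 6 genes called lower. The list for Thy1 cells was at 67.3, 10.1 and 218 in the normal libraries and at 292, 449, 124, 604 and 231 after PH. The normal library with most of these markers had most Tgfb2, and among PH libraries number 3 had least of both and number 4 most of both. PH library 5 departed from that order, with 27.3 FPKM of Tgfb2 beside 231 of the list, against 25.1 beside 449 in PH library 2. The 7 stellate markers summed to 104 to 158 FPKM in normal LSEC and 165 to 370 after PH, without overlap, with 0 called. In the HSC sort Tgfb2 averaged 6.24 FPKM in normal and 4.01 in PH libraries. In the Thy1 sort Tgfb2 was at 30.8 and 25.9 FPKM in normal and 18.3 and 13.9 in PH libraries. EC libraries held 303 to 830 FPKM of the Thy1 list, with Tgfb2 between 1.43 and 4.87. The part of the cells with these markers in the Tgfb2 difference was not tested. Without normal library 1 or 2, where 2.37% and 3.65% of all genes were called, Tgfb2 was at an adjusted p of 0.0652 or 0.0527 and Tgfbr2 at 0.0612 or 0.0560, and Tgfbr2 was at 0.0685 after quantile normalization, while Inhbb passed without each library in turn.

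**Figure D5:**
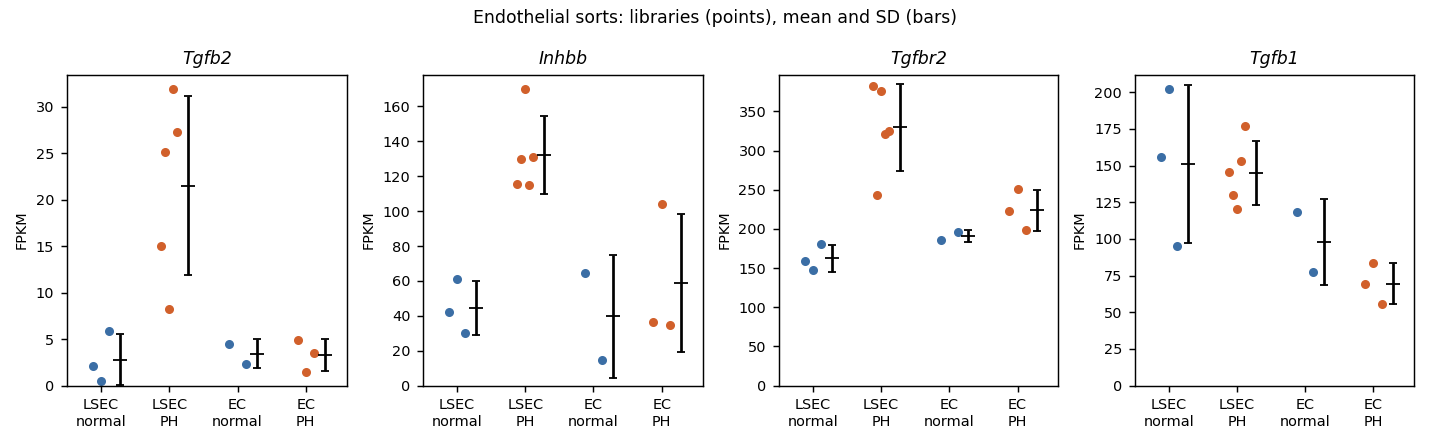
FPKM (y axis, from 0) of Tgfb2, Inhbb, Tgfbr2 and Tgfb1 in the LSEC and EC libraries, blue normal and orange PH, with mean and SD in black. Tgfb2 averages 2.81 in normal LSEC and 21.5 after PH, and is at 3.45 and 3.27 in EC.

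The EC sort showed none of these calls: 0 of 9 genes tested passed with limma, and 0 had an unadjusted p under 0.05, in a comparison with calls for 0.0249% of all genes. Tgfb2 was at 4.53 and 2.37 FPKM in normal EC and at 4.87, 1.43 and 3.51 after PH. Inhbb was at 64.6 and 14.8 in normal EC and at 36.5, 104 and 35.0 after PH, with overlap. Tgfbr2 was at 186 and 196 before and at 222, 250 and 199 after PH, a difference of 0.22 (SE 0.19, limma adjusted p 0.730). The median difference of the 9 genes was 0.22, against 0.02 for all genes. Inhba was at 0.21 in both normal EC libraries and at 9.72, 1.01 and 0.11 after PH. Mesothelial markers summed to 555, 139 and 210 FPKM in those 3 PH libraries, and duct markers to 278, 73.0 and 118. The library with most Inhba had most of both, but library 2, with more Inhba than library 3, had less of both. The part of cells with these markers in the Inhba values was not tested.

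In KC, Tgfbr3 and Tgfb2 fell after PH. These were 2 of 8 genes tested, against 36.8% of all genes, so the members' share is not above the background. The median difference of the 8 was -0.54, against -0.04. Tgfbr3 was at 25.6 and 31.0 FPKM in the normal libraries and at 2.61, 1.81 and 4.64 after PH. It fell by 2.92 on the log2 scale (SE 0.32, limma adjusted p 0.00265), and the groups were far apart. Tgfb2 was at 1.30 and 4.04 before PH and at 0.26, 0.20 and 0.18 after, a fall by 1.49 (SE 0.36, limma adjusted p 0.0259) of a low transcript. Tgfb1, at 132 and 147 before and 103, 78.2 and 141 after PH, overlapped, and Tgfbr1 was between 31.6 and 43.5 in all 5 libraries. Inhba was at 0.17 and 0.05 in the normal libraries and listed at 0 in all 3 PH libraries. The 6 hepatocyte markers were at 0 in all 5 KC libraries as well, and what a 0 means there was not tested.

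Endothelial and sinusoidal markers moved with the KC result. The 6 endothelial markers summed to 1125 and 1408 FPKM in normal KC and to 330, 284 and 517 after PH, with 4 of 6 called lower. The 6 sinusoidal markers summed to 3240 and 4470 before and 338, 303 and 526 after PH, with 6 of 6 lower, while Kupffer markers were at 12259 and 13684 before and 20536 to 22365 after. The part of these cells in the Tgfbr3 and Tgfb2 differences was not tested. Without normal library 2 or PH library 1 or 2, Tgfb2 was at an adjusted p between 0.0615 and 0.0632, and at 0.0599 after quantile normalization. Without PH library 3, the 1 without a cell type tag, 58.4% of all genes and 5 of these genes were called, a share near the background, with Tgfb1 (-0.63, limma adjusted p 0.0175), Inhbb (-1.28, 0.00866) and Tgfbr2 (-0.60, 0.00317) added.

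In NPD, Tgfb3 and Fst fell and Inhba rose after PH. These were 3 of 10 genes tested, against 15.2% of all genes, and the median difference of the 10 was -0.32 against 0.09. Tgfb3 was at 116 and 122 FPKM in the normal libraries and at 43.6 and 44.4 after PH. The replicates were close and the groups far apart, and Tgfb3 fell by 1.42 (SE 0.15, limma adjusted p 0.0107). Fst was at 43.6 and 32.6 before and 16.2 and 12.3 after PH, a fall by 1.35 (SE 0.23, limma adjusted p 0.0240). Inhba went the other way, from 2.997 and 4.32 to 9.62 and 14.9, a rise of 1.49 (SE 0.30, limma adjusted p 0.0340). Inhba thus averaged 3.66 FPKM beside 38.1 for Fst in normal NPD, and 12.3 beside 14.3 after PH. Inhbb was at 3.48 and 3.89 before and 3.21 and 2.40 after PH, so its share of the activin subunits was 50.5% ± 4.51 before and 19.4% ± 7.87 after (SD, n = 2 each).

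Mesothelial markers in NPD were at 4687 and 5055 FPKM before and 3646 and 4170 after PH, with 1 of 5 genes called higher and 0 lower, and duct markers at 1235 and 1638 before and 2061 and 2452 after, with 0 of 6 called. Kupffer markers, at 123 and 229 before and 18.9 and 26.7 after, had 6 of 6 lower. Stellate markers went from 408 and 382 to 184 and 195 and endothelial markers from 151 and 171 to 47.7 and 58.0, both without overlap. Their part in the 3 differences was not tested. Without PH library 1 or PH library 2, limma called 0 genes of the whole table, and the differences of the 3 genes were -1.41 and -1.43 for Tgfb3, 1.79 and 1.20 for Inhba and -1.54 and -1.17 for Fst (adjusted p from 0.232 to 0.382). Without normal library 2 the calls rose to 32.4% of all genes and to 5 of these 10, with Tgfb2 (0.0463) and Tgfbr1 (0.0278) added. Acvr2b was at 0.0438 without normal library 1. Inhba was also at 0.0519 without normal library 1, at 0.0507 after quantile normalization, at 0.0787 with no filter and at 0.214 in a single fit of all groups, and Fst was at 0.0632 with no filter.

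The 2 other duct populations had no call. In cBEC, 0 of 10 genes passed with limma and 3 had an unadjusted p under 0.05, where 0.0681% of all genes were called. In BEC, 0 of 9 passed and 6 had an unadjusted p under 0.05, where 1.81% were called. The median difference was -0.25 in both, against -0.11 and -0.12 for all genes. Tgfb2 was at 29.1, 25.5, 31.2 and 30.5 FPKM in normal cBEC and at 54.6 and 64.2 after PH, without overlap, with a difference of 1.01 (SE 0.165, limma adjusted p 0.136). In BEC it was at 32.1, 21.6, 33.2 and 32.6 before and 59.3 and 57.6 after PH, also without overlap (0.97, SE 0.205, limma adjusted p 0.0583). So in both sorts the PH libraries stood at about the same level, above every normal library, without passing the test. The cBEC pair was picked for its lack of overlap, and the share of all genes without overlap was not computed. Leaving out normal cBEC library 1 brought Tgfb2 to an adjusted p of 0.0448, and leaving out normal BEC library 2 or 3 to 0.0196 or 0.0471. In BEC, a pseudocount of 0.1 gave 0.0412 and upper-quartile scaling 0.0495.

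Tgfbr3 in cBEC was at 15.3, 4.98, 3.03 and 6.25 FPKM in the normal libraries and at 2.05 and 1.91 after PH. The groups did not overlap, which was a condition for describing a pair that did not pass. The difference was -1.29 (SE 0.51, limma adjusted p 0.471), with the first normal library far above the others. That library also had most endothelial markers (144 FPKM, against 2.88 to 33.1 in the other 3) and most mesothelial markers (401, against 69.5 to 98.5). After PH the endothelial list summed to 1.12 and 2.78 FPKM in cBEC. The part of these cells was not tested. In the single fit of all groups this pair reached an adjusted p of 0.0232.

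Thy1 cells had large differences and no call: 0 of 10 genes passed with limma, 4 had an unadjusted p under 0.05, and 0.00747% of all genes were called. The median difference was 0.28, against -0.06. Inhbb was at 2.75 and 7.38 FPKM in normal Thy1 cells and at 54.7 and 103 after PH. The groups were far apart, and the difference was 3.77 (SE 0.50, limma adjusted p 0.130). Tgfb1 was at 46.6 and 33.6 before and 57.9 and 121 after PH (1.06, SE 0.43, limma adjusted p 0.282). Tgfb3 was at 96.9 and 50.3 before and 27.2 and 17.9 after (-1.62, SE 0.41, limma adjusted p 0.182). Fst was at 23.3 and 29.5 before and 16.2 and 4.34 after (-1.504, SE 0.577, limma adjusted p 0.271). None of these 4 pairs overlapped, but that was a condition for describing pairs that did not pass. The share of all genes without overlap was not computed. In the single fit of all groups, which takes its spread from all populations and called 11.4% of all genes in Thy1 cells, all 4 passed, with adjusted p of 2.02e-05 for Inhbb, 0.0362 for Tgfb1, 0.0100 for Tgfb3 and 0.0107 for Fst.

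Marker levels also differed between these Thy1 libraries. The endothelial list was at 925 and 933 FPKM in normal Thy1 cells and at 1305 and 2528 after PH, and the PH library with more of these markers had more Inhbb and more Tgfb1. The Thy1 list was at 1108 and 1331 before and 603 and 1067 after PH. Mesothelial markers summed to 1536 and 2276 before and 990 and 1532 after, and the PH library with fewer of them had less Fst and less Tgfb3. Of the normal libraries, the 1 with fewer (1536) had less Tgfb3 but more Fst, at 29.5 FPKM against 23.3. The part of cells with these markers in the values was not tested.

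Stellate cells also had no call: 0 of 8 genes passed with limma, 2 had an unadjusted p under 0.05, and 0.00853% of all genes were called. The median difference was 0.04, against 0.03. Tgfbr1 was at 15.1 and 15.2 FPKM in the normal libraries and at 33.1, 46.3 and 25.1 after PH (1.11, SE 0.36, limma adjusted p 0.498). Tgfb3 was at 3.01 and 9.39 before and 14.2, 13 and 29.3 after PH (1.53, SE 0.56, limma adjusted p 0.518). In both, all PH libraries were above the normal ones, and such a lack of overlap was a condition for describing pairs that did not pass. In the single fit, Tgfb3 was at an adjusted p of 0.00805 and Tgfbr1 at 0.0521. Tgfbr3 kept its place as the highest of all populations, at 126, 150 and 118 FPKM. Kupffer markers were at 57.1 and 740 FPKM in normal HSC and at 35.9, 0.51 and 40.3 after PH, and the normal HSC library 1 and PH library 2 were among the shallowest, at about 2180000 and 2340000 fragments.

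In hepatocytes only Inhba, Fst, Tgfbr1 and Tgfbr2 were high enough to test. With limma, 0 of 4 passed and 1 had an unadjusted p under 0.05, against calls for 6.19% of all genes, and the median difference was 0.25 against -0.07. Tgfbr2, the ligand-binding receptor, was at 4.73, 6.77, 7.41 and 4.40 FPKM in normal HC and at 3.10, 3.78, 2.6 and 2.29 after PH. All 4 PH libraries were below all normal ones, and the difference was -0.78 (SE 0.22, limma adjusted p 0.0678). It reached 0.0223 in the single fit of all groups. Inhba was at 1.39, 4.93, 5.01 and 1.09 before and 7.70, 5.48, 2.08 and 3.66 after PH, and Tgfbr1 at 1.61, 5.98, 5.23 and 1.32 before and 8.54, 7.24, 1.84 and 4.01 after. Both genes, and Fst, were higher in normal libraries 2 and 3 than in 1 and 4, and highest of the PH libraries in library 1. The TGF-beta ligands did not exceed 0.85 FPKM in any hepatocyte library.

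In the libraries labelled PH blood, Inhbb, Tgfb1, Acvr2b and Tgfb3 were called higher and Tgfbr1 lower than in normal blood. These were 5 of 7 genes tested, against 64.0% of all genes, a share near the background. The median of all genes moved by -0.31 on the log2 scale (-0.12 after upper-quartile scaling), and the median of the 7 was 0.92. Inhbb was at 0.58 and 0.94 FPKM in normal blood and at 191 and 28.8 in the PH libraries. The groups were far apart and the PH libraries unequal, with a difference of 5.43 (SE 0.90, limma adjusted p 0.00641), or 5.74 relative to the median of all genes. Tgfb1 was at 77.4 and 60.7 before and 191 and 166 after (1.36, SE 0.19, limma adjusted p 0.00398), which is 1.67 relative to that median. Tgfbr1 was at 67.3 and 50.9 before and 24.8 and 34.0 after, a difference of -0.98 (SE 0.23, limma adjusted p 0.0188), or -0.68 relative to the median. Acvr2b was at 0.42 and 0.20 before and 1.30 and 1.64 after (0.92, SE 0.18, limma adjusted p 0.0108), and Tgfb3 at 1.17 and 1.502 before and 2.89 and 2.35 after (0.63, SE 0.20, limma adjusted p 0.0419), both low and without overlap.

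The change of marker content described above accompanied each of these blood values. In that comparison 6 of 6 Kupffer, 6 of 6 endothelial and 6 of 6 sinusoidal markers were called higher and 7 of 7 blood markers lower, and the PH library with more endothelial markers (1674 against 864 FPKM) had more Inhbb. In PH LSEC, with 2584 to 3602 FPKM of endothelial markers, Inhbb was between 115 and 170, against 191 and 28.8 in the PH blood libraries. The part of the cells with these markers in the result was not tested. Without normal library 1 or normal library 2 none of the 5 passed, with adjusted p between 0.0555 and 0.249, and 9.49% and 13.8% of all genes were called. Without PH library 1, Tgfb3 (0.0938) and Tgfbr1 (0.0574) did not pass, and without PH library 2 Tgfbr3 passed (0.00916). Tgfb3 was also at 0.0563 with a pseudocount of 0.1, at 0.0625 with no filter and at 0.270 in the single fit, where Tgfbr1 (0.0590) and Acvr2b (0.0525) did not pass either.

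A list of 57 other genes of the pathway covers further ligands, antagonists, latency proteins, receptors, SMADs with their regulators, and target genes. It gave 77 calls among 429 tested pairs of gene and population, 41 higher and 36 lower, or 17.9% against 13.4% of all genes. Without blood it gave 46 calls among 385 (11.9%, against 7.45%), 16 higher and 30 lower. No gene was called in cBEC (0 of 49 tested with limma, 8 at an unadjusted p under 0.05), HC (0 of 23, with 3), EC (0 of 45, with 10), HSC (0 of 48, with 7) or Thy1 cells (0 of 48, with 11). In LSEC, 4 of 40 were higher and 2 lower (8.46% of all genes were called), with a median of 0.22 against -0.03 for all genes. Fstl1, a secreted follistatin-like protein, rose by 3.49 from a mean of 11.1 to 90.6 FPKM (SE 0.82, limma adjusted p 0.0335). The order of the libraries by Fstl1 was that of the summed Thy1 list given above, within the normal and within the PH libraries, and the part of Thy1 cells was not tested. The latent TGF-beta binding proteins went in opposite directions there: Ltbp1 rose from 0.72 to 10.4 FPKM (2.66, SE 0.48, limma adjusted p 0.0107), and Ltbp4 fell from 576 to 105 (by 2.47, SE 0.32, limma adjusted p 0.00280). Ltbp1 also followed the order of the Thy1 list, except that PH library 2 (18.6 FPKM) was above PH library 4 (16.2). The part of Thy1 cells in the Ltbp1 rise was not tested. Nrros, a latency protein of macrophages, fell by 0.89, from 45.6 to 24.0 (SE 0.23, limma adjusted p 0.0406). Kupffer markers summed to 138, 53.9 and 6.24 FPKM in the normal LSEC libraries and to between 2.52 and 9.33 after PH, and the normal library with most of them had most Nrros. Their part was not tested.

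In NPD, 9 of 45 pathway genes were higher and 4 lower (15.2% of all genes were called), with a median of 0.41 against 0.09. Timp1, an inhibitor of matrix metalloproteinases, rose by 3.67 from a mean of 108 to 1196. Ltbp4 fell by 2.004, from 637 to 156, and Dcn, which encodes the TGF-beta binding proteoglycan decorin, fell by 1.47, from 3165 to 1142. In KC, 3 of 42 were higher and 17 lower (36.8% of all genes were called), with a median of -0.57 against -0.04. Timp1 rose by 2.05 (0.47 to 5.39) and Tagln, a smooth muscle actin-binding protein, by 1.66 (8.33 to 28.3). Ltbp4 fell by 5.18, from 167 to 4.32, and Fn1 (fibronectin) was called lower, at 34.2 and 267 FPKM before and listed at 0 in all 3 PH libraries. Fn1 is abundant in hepatocytes (247 and 377 FPKM in normal and PH HC), and other hepatocyte genes, such as those of the hepatocyte marker list, also read 0 in many non-hepatocyte libraries.

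In BEC, 0 of 45 were higher and 7 lower (1.81% of all genes were called), with a median of -0.23 against -0.12. Eng, the co-receptor endoglin, fell by 3.77, from 31.1 to 1.07, and Col3a1, a fibrillar collagen, by 2.64, from 13.1 to 1.28. The endothelial list in BEC fell alongside, from 25.7 to 107 FPKM in normal libraries to 0.87 and 1.72 after PH, with 3 of 6 markers called lower, and its part in the result was not tested. In the libraries labelled PH blood, 25 of 44 were higher and 6 lower, a share near the 64.0% of all genes called, with a median of 1.0 against -0.31. Ski, a repressor of SMAD signalling, rose by 3.28 from 3.395 to 41.6, and Fstl3, an activin-binding relative of follistatin, fell by 2.59 from 8.42 to 0.49. Lefty1, a ligand that antagonises Nodal, fell by 1.40, from 18.1 to 5.98.

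Genes with the most similar pattern over the 20 group means of log2(FPKM + 1) were searched among 11682 genes, by Pearson's r, as a description. The 20 groups share libraries across genes, and the populations differ in most genes. Tgfbr3 was most like Mxra8 (r = 0.992), Ppic and Ccdc80, and Fst was most like Mfsd7c (0.964), Pcsk6 and Ablim3. Inhbb was most like Alox12 (0.939), Srgap1 and Wdr59. For the ligands, Tgfb1 was most like Sh2b3 (0.963), Rgl1 and Man1c1, Tgfb2 most like Zfp462 (0.948), Il17rd and Itga3, and Tgfb3 most like Arl6 (0.970), Ninl and Ubtd2. Inhba was most like Fat1 (0.944), Abhd2 and Cep170b. Among receptors, Tgfbr2 was most like Rnf145 (0.966), Klf2 and Sh3tc1, Tgfbr1 most like Actb (0.947) and Hps3, and Acvr2b most like Ankrd24 (0.958), Mepce and Jmy. Over the 18 groups other than blood, r with these leading genes was between 0.927 and 0.994. Among the 10 genes themselves, Tgfb2 went with Tgfb3 (r = 0.875, and 0.869 without blood), Tgfbr2 with Tgfbr3 (0.866 and 0.873) and Tgfb1 with Tgfbr2 (0.842 and 0.843), while Tgfb1 and Inhba ran opposite (-0.635 and -0.593).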

How the data were processed

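RNA from 55 sorted mouse liver libraries was measured by RNA-seq. The submitters' processing notes name CASAVA 1.8.2, Bowtie 1.0.0 and the genome build mm9, without saying what each did. The authors deposited FPKM per transcript, as the table's name says. How the values were counted is not given in the sources used here. The hepatocyte columns are rounded to 2 decimals. In 1348 of 1398 microRNA rows the end minus the start equalled the length, so starts were taken as counted from 0 and are printed counted from 1. No column of per-sample values was left over.

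A symbol's most abundant row stood for the gene. Values were transformed to log2(FPKM + 1) and tested with limma 3.58.1 (R 4.3.3), using a variance trend and robust moderation. Fold changes on this scale understate those of low genes. Genes had to reach 1 FPKM in at least as many libraries as the smaller group holds. PH was compared with normal within each population. Normal populations were compared with the mean of the other 9, and the interaction was fitted over all 20 groups. P-values were adjusted over all genes tested (Benjamini-Hochberg), with a threshold of 0.05. The scripts were tested on simulated data. Tables were made with Python 3.11.15 and figures with matplotlib 3.10.9.

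Depth was approximated from the spacing of low values with transcript lengths from another annotation, for 17854 transcripts, and is unknown for 15 libraries. Alternatives were quantile normalization, no filter, a smaller pseudocount (0.1), scaling to the upper quartile, a replicate block, a single fit of all 20 groups, summed rows per symbol, and leaving out each library. Leaving out the blood libraries was added after seeing the data. The members and lists were chosen with earlier results of these data known. Every gene of the 10 is named. A PH difference is described with every library where it passed, or where the groups did not overlap and differed by at least 1 on the log2 scale, and others are given where a comparison needs them. Of the pathway list, up to 2 of the largest rises and falls that passed are named per population. Similar genes are the 3 with the highest r among genes that averaged 10 FPKM or more in some group, without predicted and small RNA genes. Some genes that these rules pick are not reported here.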

Additional observations from a re-analysis of the deposited data

Results flagged for a closer look

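The response to PH differed between populations for 7 of the 10 genes by the limma F test of the interaction, with adjusted p of 0.000914 for Tgfb1, 3.96e-06 for Tgfb2, 0.000431 for Tgfb3, 4.57e-08 for Inhbb, 0.0457 for Fst, 0.00027 for Tgfbr2 and 2.11e-06 for Tgfbr3. Of all genes tested, 47.8% passed this test. With the blood libraries left out the values were 0.0282, 1.52e-05, 0.00117, 4.38e-05, 0.0737, 0.000762 and 1.08e-05, in the same order, and the share of all genes was not computed. For Tgfb2 the groups separated upwards in LSEC and downwards in KC. They also did not overlap in cBEC and BEC (higher after PH) or in NPD and Thy1 cells (lower), without passing the tests there. How often groups of all genes did not overlap was not computed. Inhbb was higher after PH in all 5 LSEC libraries and in both Thy1 libraries, of which only the first passed its own test. Inhba (0.540), Tgfbr1 (0.12) and Acvr2b (0.121) did not pass.

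In 8 of 50 combinations of a gene with a group of 4 or 5 libraries, 1 library stood far from the others by Dixon's criterion. For independent combinations chance gives about 1 in 20, or 2.5, but these share the same libraries. Tgfbr2 in normal cBEC library 1 was at 43.3 FPKM, against 18.9 to 20.2 in the others, and this library also had most endothelial and mesothelial markers. Tgfb2 in normal BEC library 2 was at 21.6, against 32.1 to 33.2. Inhbb was at 10.4 in normal cBEC library 4, against 7.05 to 7.55, at 8.77 in normal BEC library 4, against 11.4 to 11.5, and at 169.9 in PH LSEC library 3, against 114.8 to 130.7. Tgfbr3 in normal BEC library 3 was at 5.80, against 3.85 to 4.15. Fst was at 0.766 in normal BEC library 3, against 0 in the others, and at 0.0383 in PH LSEC library 2, against at most 0.00644, both very low values.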

How the results depend on the processing

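No difference among the 21 named pairs of gene and population changed direction under any alternative. Of their alternative values, 201 kept their side of the threshold, 41 lost it and 9 gained it. Leaving out each library in turn gave counts of genes called after PH of 0 to 1 in cBEC and in BEC (0 with all libraries), 0 to 5 in NPD (3), 1 to 3 in LSEC (3), 1 to 5 in KC (2) and 0 to 6 in blood (5). In normal liver it gave 4 to 8 in EC (7) and 2 to 5 in HSC (5). Where leaving out a library left 1 in a group, that library was assumed to vary like the others. The single fit of all 20 groups called 1 gene in cBEC, 1 in HC, 1 in HSC, 4 in Thy1 cells and 3 in blood. Of all genes it called 3.12%, 7.22%, 11.9%, 11.4% and 40.2%, in the same order. In BEC 1 gene was called with a pseudocount of 0.1 (3.74% of all genes) and 1 with upper-quartile scaling (1.39%). No filter left 1 call in NPD (3.61% of all genes), and quantile normalization 1 in KC (38.5%). The cause of these shifts was not tested. Interaction calls numbered 7 with all libraries (47.8% of all genes) and 6 without blood, where the share of all genes was not computed. Tgfb1, Tgfb2, Tgfb3, Inhbb, Tgfbr2 and Tgfbr3 passed in all 63 settings, Fst in 21.

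Replicate numbers gave no clear pairing of the libraries: of 23 same-numbered pairs, 4 had deviations correlated above 0.1 (range -0.640 to 0.474). Of the normal libraries, 1 of 4 in HC and 0 of 3 in LSEC correlated best with their own number. In NPD, Thy1 cells and blood, with 2 libraries per group, both pairs have the same correlation by construction. The check therefore cannot exclude pairing. With the replicate block, 4 genes were called in BEC, 0 in LSEC (adjusted p 0.259 for Tgfb2, 0.134 for Inhbb and 0.184 for Tgfbr2), 5 in KC and 2 in Thy1 cells. Over all genes the block moved the calls from 973 to 3 in LSEC, from 232 to 1027 in BEC, from 4350 to 6549 in KC, from 621 to 302 in HC, from 9 to 61 in cBEC and from 1 to 485 in Thy1 cells. No filter moved them from 1974 to 648 in NPD and from 232 to 53 in BEC. The single fit gave 515 in cBEC, 349 in BEC, 1194 in HC, 205 in EC (3 in its own fit), 1960 in HSC (1) and 1886 in Thy1 cells. FPKM give no counts, and depth limits low transcripts most in the 4 shallowest libraries.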
